A study of Homo sapiens with 12 samples.

Results

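The EGR and NR4A genes are immediate-early genes, and the NAB genes encode corepressors of EGR proteins. The 9 genes followed here were EGR1, EGR2, EGR3, EGR4, NR4A1, NR4A2, NR4A3, NAB1 and NAB2. They were selected by gene symbol, and each had 1 row among the 48114 genes listed. The set was drawn up with its values in these same libraries known. Its differences between groups are therefore given as a description without p-values, and where members past the threshold of the fit are counted, the count describes them and is not a test of the set. The p-values below concern other genes. The gene lists that hold most of these were also chosen with earlier results of these data known.

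Immediate-early genes are transcribed within minutes of a stimulus from factors that are already present in the cell. The growth-factor route runs through the kinases RAF, MEK and ERK to the serum response factor SRF and its partners at CArG boxes, and cAMP and calcium signals act through CREB at cAMP response elements (CREs). EGR1 to EGR4 are zinc-finger transcription factors that bind GC-rich sites. NR4A1, NR4A2 and NR4A3 are orphan nuclear receptors that are regulated mainly by their abundance. NAB1 and NAB2 are corepressors that bind EGR1, EGR2 and EGR3 and recruit the NuRD complex, and NAB2 is itself an EGR target, which closes a negative feedback loop.

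Polyadenylated RNA was sequenced from 2 human pancreatic ductal adenocarcinoma (PDAC) cell lines in 12 libraries, with 3 biological replicates per group. PANC-1 cells, a basal-like line, were transfected for 48 h with a control siRNA (siCtrl), whose dose the labels do not give, or with siRNA against QKI (siQKI) or RBFOX2 (siRBFOX2), both at 40 nM. QKI and RBFOX2 are RNA-binding proteins that regulate splicing, and the study asked what the loss of either does to the PANC-1 transcriptome. HPAF-II cells, a line with high epithelial markers, received siCtrl. Both lines were grown in medium with serum, the labels name no further stimulus before collection, and a bulk measurement cannot tell fewer expressing cells from less RNA per cell.

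Values are normalized counts, that is, counts per gene scaled by the authors with DESeq2 size factors. Those factors, read back from the values, ran from 0.877 to 1.15 for PANC-1 libraries and from 0.810 to 1.09 for HPAF-II libraries, and the depth in sequenced fragments is unknown. The targeted genes followed the labels: QKI was at 5034 ± 412 normalized counts in siQKI cells and 25533 ± 869 in siCtrl cells (SD, n = 3 each; limma adjusted p = 9.15e-13), and RBFOX2 was at 2095 ± 352 in siRBFOX2 cells and 15429 ± 76.8 in siCtrl cells (SD, n = 3 each; limma adjusted p = 4.70e-11). In siQKI cells RBFOX2 itself stood at 12642 ± 129 (SD, n = 3; log2 fold change -0.29, standard error 0.09, limma adjusted p = 0.0207). The 3 mesenchymal markers VIM, ZEB1 and CDH2 summed to between 5138 and 5567 in PANC-1 libraries and to between 1.09 and 16.2 in HPAF-II libraries, as counts rescaled to a library total of 1000000. The 6 epithelial markers (CDH1, EPCAM, KRT8, KRT18, KRT19 and GATA6) summed to between 2129.6 and 2713 and to between 10342 and 10732. Of 6 markers of other cell types (PTPRC, CD3E, PECAM1, LUM, DCN and ALB), 3 or 4 were at 0 in all libraries of a PANC-1 group and 2 in all HPAF-II libraries, and their rescaled sum was at most 0.224 in PANC-1 and 1.89 in HPAF-II libraries.

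The promoter windows were searched for exact matches to classical immediate-early elements near the transcript starts. Elements outside the windows, or with other letters, would not be found. RefSeq windows of 250 bases before to 50 bases after a transcript start (GRCh38.p14) were found for 7 of the 9 genes, 12 windows in all, since EGR2 and NAB1 have 3 starts each and NR4A1 has 2. EGR3 and NR4A2 had no entry. The CArG box (CC, then 6 bases that are A or T, then GG) was searched on both strands, and it is held by 1.29% of the 35116 windows of all genes. It was present in the EGR1 window, as a pair 105 and 83 bases before the start, and in the window of the third EGR2 start, 71 bases before it. These sites are printed 5′ to 3′ on the strand of the gene with the CArG box in capitals.
EGR1 chr5:138465364-138465393 (+): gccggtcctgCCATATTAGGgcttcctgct
EGR1 chr5:138465386-138465415 (+): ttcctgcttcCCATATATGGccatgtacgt
EGR2 chr10:62816418-62816447 (-): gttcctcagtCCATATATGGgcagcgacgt

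The full CRE, TGACGTCA, was in none of the 12 windows (1.85% of all windows hold it). Its core TGACG, which is part of the full CRE and was searched after the windows had been read, was in windows of EGR1, EGR2, EGR4, NR4A3 and NAB1. It is held by 24.6% of all windows and by 28.4% of all genes with a window. NR4A3 had 4 of them between 109 and 25 bases before its start, more than any of the other 11 windows, and 2 that lie 83 and 25 bases before it are shown with the core in capitals.
NR4A3 chr9:99821792-99821816 (+): ggcgtcacatTGACGtctcgcattc
NR4A3 chr9:99821850-99821874 (+): gtggcataaaTGACGtgccgagaga

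The EGR site GCGNGGGCG was in the windows of 4 genes, EGR1, EGR2, NAB1 and NAB2. It is held by 9.43% of all windows and by 11.2% of all genes with a window. Of this site, which the EGR proteins bind, matches that lie before a start are shown for EGR1, NAB1 and NAB2 in capitals. The EGR2 match lies just after the second EGR2 start and is not shown. The NAB1 site shown lies before the second start and just after the first. On the opposite strand, 2 more that overlap each other lie before the first start, and another lies just after the second.
EGR1 chr5:138465271-138465299 (+): tgggatgcggGCGCGGGCGcgggccctag
NAB1 chr2:190648898-190648926 (+): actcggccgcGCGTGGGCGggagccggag
NAB2 chr12:57089042-57089070 (+): tgtgcgtcctGCGGGGGCGgaggcgcgga
Neither the NR4A monomer element NBRE, AAAGGTCA (1.22% of all windows), nor the AP-1 site TGANTCA (7.71%) was in any of the 12 windows, and both NR4A1 windows and that of the first EGR2 start held none of the motifs searched. A match describes the letters of a window and is not a measurement of binding.

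**Figure D1:**
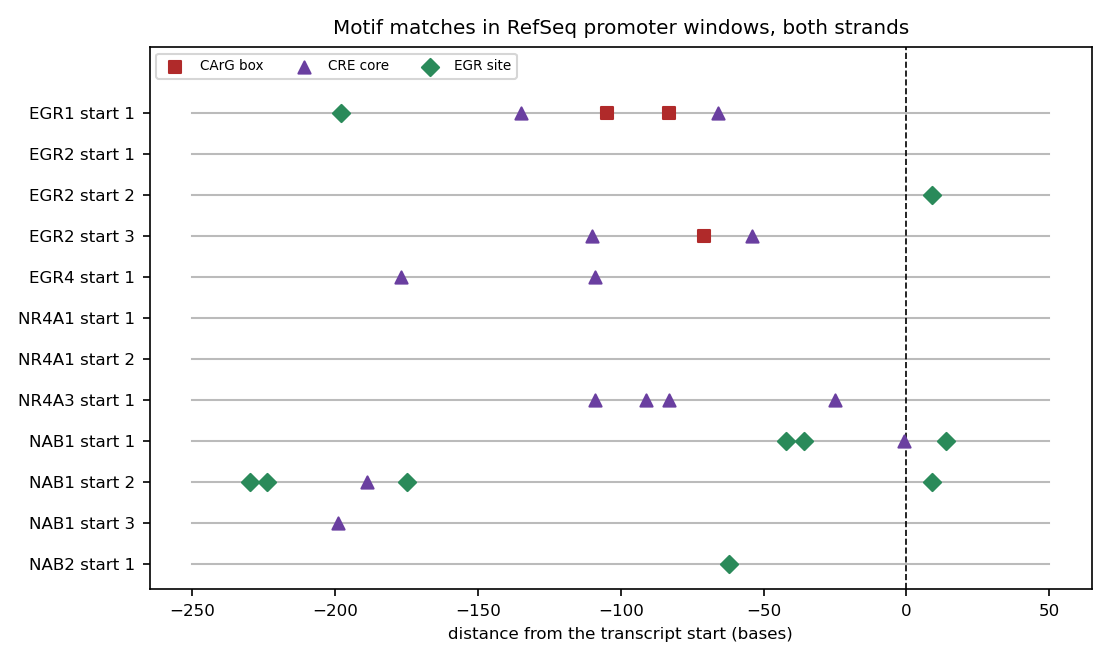
Motif matches in the 12 RefSeq promoter windows of 7 genes, drawn by distance in bases from the transcript start (dashed line). CArG boxes (squares) lie only in the windows of EGR1 and the third EGR2 start, CRE cores (triangles) in those of EGR1, EGR2, EGR4, NR4A3 and NAB1, and EGR sites (diamonds) in those of EGR1, EGR2, NAB1 and NAB2.

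In PANC-1 cells, all 4 EGR genes had their lowest levels after RBFOX2 knockdown, at 28.0% (EGR1), 13.3% (EGR2), 17.4% (EGR3) and 30.8% (EGR4) of the siCtrl mean. After QKI knockdown they were at 69.8%, 63.6%, 75.5% and 59.5% of it. The same held for NR4A1 and NR4A2, at 21.7% and 11.4% after RBFOX2 knockdown and 83.2% and 76.1% after QKI knockdown. NAB1 and NAB2 stayed within 78.5% to 82.5% of siCtrl in both knockdowns. The plots by library and by fold change show these 3 patterns.

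**Figure D2:**
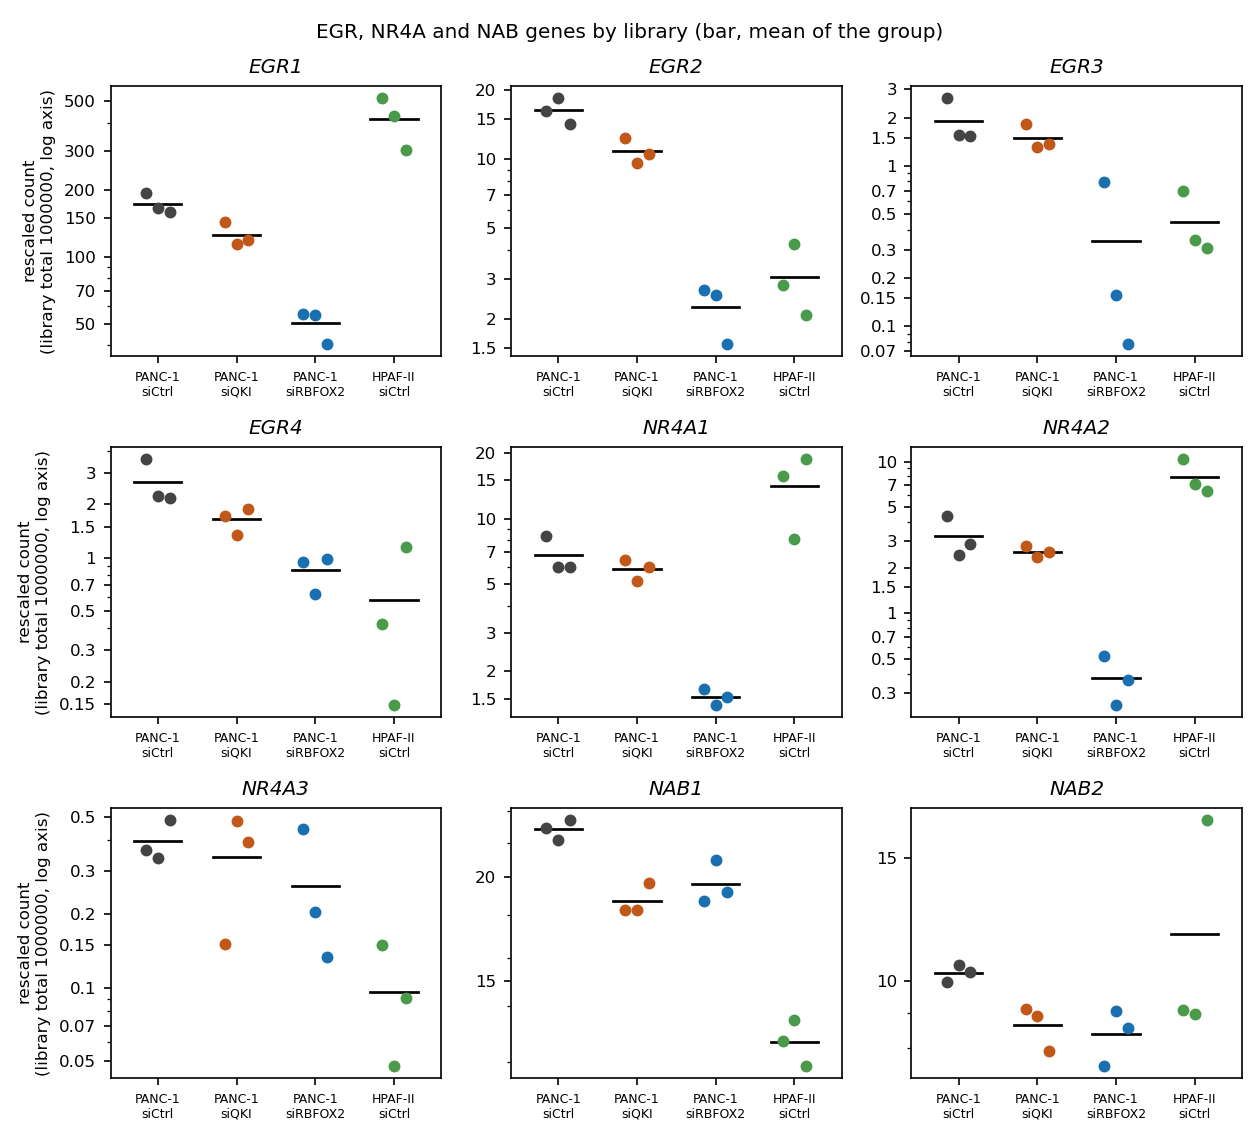
Level of each gene in each of the 12 libraries, as counts rescaled to a total of 1000000 per library, on a log axis that differs between panels. Points are libraries and bars are means of 3. EGR1 to EGR4, NR4A1 and NR4A2 are lowest among PANC-1 groups in siRBFOX2 cells with no overlap, whereas NR4A3 libraries overlap, and the HPAF-II libraries lie above PANC-1 siCtrl for EGR1 and NR4A2 and below it for EGR2, EGR3, EGR4, NR4A3 and NAB1.

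EGR1 (GSHG0034747 in the FAST DB annotation; hg38 chromosome 5, 138465479 to 138469500) is the best studied member and links growth-factor signalling to GC-rich promoters. Its normalized counts were 65757, 57383 and 54753 in the siCtrl libraries, 47569.9, 37586 and 39017 in the siQKI libraries, and 18646, 17672 and 13576 in the siRBFOX2 libraries. The 3 groups did not overlap, and they stood in the order siCtrl, siQKI, siRBFOX2. The log2 fold change against siCtrl was -0.52 (standard error 0.11) for siQKI and -1.84 (standard error 0.11) for siRBFOX2.

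EGR2 (GSHG0005047; chromosome 10, 62811996 to 62819167), known for its part in hindbrain and Schwann cell development, had 5499.7, 6421 and 4922 normalized counts in siCtrl cells, 4112, 3147 and 3446 in siQKI cells, and 897, 822 and 519.6 in siRBFOX2 cells. All siRBFOX2 libraries lay far below the others, and the siQKI libraries lay between, with no overlap. On the log2 scale the change was -0.65 (standard error 0.17) for siQKI and -2.94 (standard error 0.17) for siRBFOX2. The latter ranked 63 from the lowest of the 22544 genes tested.

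EGR3 (GSHG0042190; chromosome 8, 22687659 to 22694131), which acts in muscle spindle development and in lymphocytes, was measured at lower values and with a wider spread. The siCtrl libraries had 894, 539.7 and 529 normalized counts, the siQKI libraries 604, 429 and 449, and the siRBFOX2 libraries 266, 50.4 and 25.9. The siQKI and siCtrl libraries overlapped, while each siRBFOX2 library lay below every other PANC-1 library. Library 1 of the siRBFOX2 group was far above the other 2 (SD 132 around a mean of 114), so that the log2 fold change of -3.15 (standard error 0.57) became -4.09 without it and -2.44 without library 3.

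EGR4 (GSHG0025455; chromosome 2, 73290929 to 73293709), known for its part in male germ cell maturation, had 1218, 778 and 755 normalized counts in siCtrl cells, 576, 439.5 and 622 in siQKI cells, and 319, 201 and 327 in siRBFOX2 cells. Again the 3 groups were apart in the order siCtrl, siQKI, siRBFOX2. Its log2 fold change was -0.73 (standard error 0.23) for siQKI and -1.69 (standard error 0.23) for siRBFOX2. The row shares 57 bases with a gene without a symbol whose means were 7.26 to 11.8 normalized counts.

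NR4A1 (GSHG0009042; chromosome 12, 52037714 to 52059503), also known as Nur77, takes part in apoptosis and in metabolic control. Its normalized counts were 2822, 2098 and 2078 in siCtrl cells, 2156, 1697 and 1968 in siQKI cells, and 556, 451 and 510.4 in siRBFOX2 cells. The siQKI library with the highest value reached into the siCtrl range, whereas the siRBFOX2 libraries stood apart below both groups. The log2 fold change was -0.26 (standard error 0.14) for siQKI and -2.19 (standard error 0.14) for siRBFOX2.

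NR4A2 (GSHG0026007; chromosome 2, 156324432 to 156332721), or Nurr1, is needed for midbrain dopamine neurons. It had 1476, 844 and 992 normalized counts in siCtrl cells, 921, 767 and 834 in siQKI cells, and 176, 80.4 and 121 in siRBFOX2 cells. The highest siQKI library reached into the siCtrl range, and the siRBFOX2 libraries were all below both groups. The siRBFOX2 log2 fold change was -3.15 (standard error 0.26), which ranked 47 from the lowest of 22544 genes, and the siQKI value was -0.36 (standard error 0.26).

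NR4A3 (GSHG0043631; chromosome 9, 99821855 to 99866891), or NOR1, had few counts and no separated groups. Its normalized counts were 124, 118 and 167 in siCtrl cells, 50.2, 158 and 129 in siQKI cells, and 149, 65.9 and 44.5 in siRBFOX2 cells. Library 1 was the lowest of the siQKI group and the highest of the siRBFOX2 group, and the siQKI and siRBFOX2 groups each reached into the siCtrl range. The log2 fold changes were -0.42 (standard error 0.50) for siQKI, which became 0.08 without siQKI replicate 1, and -0.82 (standard error 0.50) for siRBFOX2, so that no difference was detectable at this spread.

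The corepressor NAB1 (GSHG0024652; chromosome 2, 190648895 to 190692766) had 7761, 7722 and 8078 normalized counts in siCtrl cells, 6081, 5984 and 6458 in siQKI cells, and 6293, 6738 and 6412 in siRBFOX2 cells. Both knockdowns lay below siCtrl, and they overlapped each other. The log2 fold change was -0.35 (standard error 0.05) for siQKI and -0.28 (standard error 0.05) for siRBFOX2.

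NAB2 (GSHG0009145; chromosome 12, 57089107 to 57095483), the NAB gene that growth factors and EGR1 induce, had 3377, 3664 and 3549.5 normalized counts in siCtrl cells, 3033, 2915 and 2599 in siQKI cells, and 2539, 2916 and 2858 in siRBFOX2 cells. It too was lower in both knockdowns with no overlap, by -0.31 (standard error 0.08) for siQKI and -0.35 (standard error 0.08) for siRBFOX2 on the log2 scale. NAB2 shares 76 bases with STAT6 (11589 to 13745 normalized counts on average in the 3 groups), and whether the counting used strand is not stated, so a few STAT6 reads may be in its row.

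**Figure D3:**
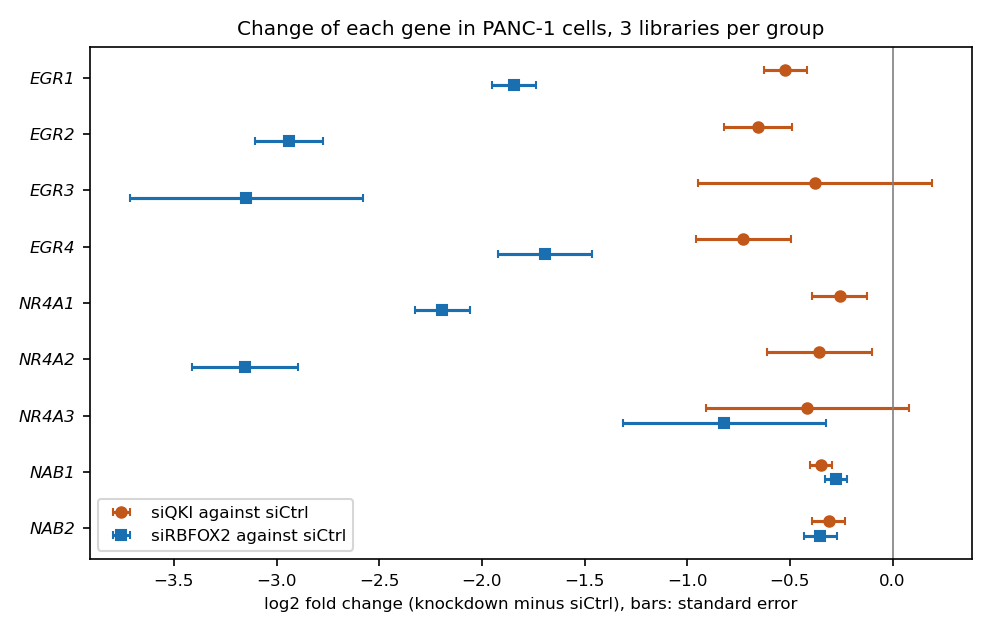
Log2 fold change of each gene in siQKI (circles) and siRBFOX2 (squares) PANC-1 cells against the same 3 siCtrl libraries, with bars of 1 standard error. The siRBFOX2 values of EGR1 to EGR4, NR4A1 and NR4A2 lie between -1.69 and -3.15 and their siQKI values between -0.26 and -0.73, while the values of NAB1 and NAB2 lie between -0.28 and -0.35 in both.

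Counted over the set, 8 of the 9 genes were past the threshold of 0.05 in siRBFOX2 cells and lower with no overlap, with a median log2 fold change of -1.84 beside 0.01 over all genes tested. Of all genes tested, 14.5% were called lower and 12.0% higher in that comparison, and 19.7% had libraries that were lower with no overlap. In siQKI cells the count was 5 of 9 by both measures, with a median of -0.38 beside 0.03 over all genes, where 18.1% of all genes were called lower, 14.9% higher, and 23.0% were lower with no overlap. With each library rescaled by its upper quartile, the share of calls that were higher went from 45.2% to 58.0% in siQKI cells, from 45.3% to 53.5% in siRBFOX2 cells and from 46.2% to 55.3% in siQKI against siRBFOX2 cells. Since the set was chosen on these comparisons, nothing is read from these counts.

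In the direct comparison of the knockdowns, which leaves the shared siCtrl libraries out of the means, EGR1 to EGR4, NR4A1 and NR4A2 were higher in siQKI cells, whereas NR4A3, NAB1 and NAB2 overlapped. NR4A2 was 6.68-fold higher in siQKI than in siRBFOX2 cells (log2 difference 2.80, standard error 0.26). EGR2 was 4.78-fold higher (2.29, standard error 0.17), EGR3 4.33-fold (2.77, standard error 0.57), NR4A1 3.84-fold (1.94, standard error 0.14), EGR1 2.49-fold (1.32, standard error 0.11) and EGR4 1.93-fold (0.97, standard error 0.23). These 6 genes were past the threshold with libraries apart, where 9.93% of all genes were called higher in siQKI cells, 11.6% lower, and 17.1% were higher with no overlap. This count too comes from values on which the set was chosen, and nothing is read from it. NAB1 (-0.07, standard error 0.05), NAB2 (0.04, standard error 0.08) and NR4A3 (0.40, standard error 0.50) had smaller differences. The EGR3 difference was 3.72 without siRBFOX2 replicate 1 and 2.06 without replicate 3.

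Within groups the genes also varied by library. EGR1, EGR3, NR4A1 and NR4A2 had their highest value in library 1 of each of the 3 PANC-1 groups. How many of all genes share this pattern was not counted. The smallest spread belonged to NAB1, with a coefficient of variation of 2.49% to 4.05% over the PANC-1 groups, and NAB2 had 4.09% to 7.88%. EGR1 had 9.69% to 16.2%, NR4A3 19.5% to 64.0% and EGR3 19.4% to 116%. The labels do not say that equal library numbers share a day or a passage, and whether one moved these genes was not tested.

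HPAF-II cells had a different balance of these genes from PANC-1 cells under the same control siRNA. The 2 lines were normalized apart, so counts were rescaled to a total of 1000000 per library, and no test was run between lines. EGR1 stood at 515, 430 and 302 rescaled counts in HPAF-II libraries and at 194, 165 and 159 in PANC-1 siCtrl libraries, a ratio of means of 2.41 with no overlap. NR4A2 was 2.47-fold higher (10.3, 7.13 and 6.38 against 4.36, 2.42 and 2.87), also with no overlap. NR4A1 was 2.08-fold higher by its means (14.2 ± 5.49 against 6.79 ± 1.33, SD, n = 3 each), but its lowest HPAF-II library, at 8.05, was under the highest PANC-1 library, at 8.33.

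The other EGR genes lay the opposite way from EGR1. EGR2 was 5.34-fold lower in HPAF-II cells (2.82, 4.26 and 2.08 against 16.2, 18.4 and 14.3 rescaled counts), EGR3 4.24-fold lower (0.693, 0.347 and 0.310 against 2.64, 1.55 and 1.53) and EGR4 4.64-fold lower (0.423, 0.148 and 1.16 against 3.59, 2.23 and 2.19). In all 3 the libraries of the lines were apart, and the HPAF-II level of EGR4 rested mostly on library 3, without which it was 3.18 lower on the log2 scale instead of 2.19. NR4A3 was 4.13-fold lower (0.0961 ± 0.0513 against 0.397 ± 0.0768, SD, n = 3 each) at levels near the low end of what was measured. NAB1 was 1.80-fold lower with no overlap (12.7 ± 0.814 against 22.8 ± 0.613, SD, n = 3 each). NAB2 overlapped, with 9.09, 8.95 and 17.0 against 9.97, 10.5 and 10.3, and its log2 ratio of 0.19 turned to -0.09 with the deposited values and to -0.19 without HPAF-II library 3.

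By a ratio of at least 2 and libraries apart, 2 of the 9 genes were higher in HPAF-II cells and 4 were lower, where 21.1% of 24673 genes compared were higher and 21.6% lower by the same rule. Of 31 other immediate-early genes compared, 4 were higher and 14 lower in HPAF-II cells by that rule. Across the 4 groups, EGR1 ran from HPAF-II through siCtrl and siQKI to siRBFOX2 with every neighbouring pair apart. For EGR2 and EGR3, HPAF-II and siRBFOX2 cells were the 2 lowest groups and overlapped, and the same was true of EGR4 in the other order. For NR4A1 and NR4A2, HPAF-II stood highest and siRBFOX2 lowest, and the neighbours siCtrl and siQKI overlapped.

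Most other immediate-early genes were also lower in siRBFOX2 cells. Their list was drawn up with earlier results of these data known, so its counts describe it and are not an independent test. Of 32 other immediate-early genes, all of which were tested, 25 fell and 2 rose past the threshold (limma, Benjamini-Hochberg adjusted over all genes), with a median log2 fold change of -0.61. Over all genes tested, 14.5% were called lower and 12.0% higher, and the median was 0.01. The AP-1 subunits FOSB and FOS had the largest falls, at -2.69 (standard error 0.13, adjusted p = 2.54e-09) and -2.37 (standard error 0.14, adjusted p = 2.23e-08). The FOS row is wide (chromosome 14, 75278828 to 75709788), so reads of neighbouring genes may be in it. DUSP2, a phosphatase that inactivates ERK, fell by 1.09 (standard error 0.11, adjusted p = 5.66e-06) and JUN by 1.06 (standard error 0.07, adjusted p = 4.09e-08). The 2 that rose were the antiproliferative gene BTG2 (0.54, standard error 0.15, adjusted p = 0.0133) and the stress-induced factor ATF3 (0.32, standard error 0.09, adjusted p = 0.0150), and the call for BTG2 was lost without siCtrl replicate 3 and that for ATF3 without siRBFOX2 replicate 3.

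In siQKI cells, 19 of the 32 fell and 2 rose, with a median of -0.30, beside 18.1% lower, 14.9% higher and a median of 0.03 over all genes. The largest falls were those of DUSP5, GEM, PHLDA1 and FOSL1. DUSP5, a nuclear ERK phosphatase, fell by 1.09 (standard error 0.06, adjusted p = 3.78e-09), GEM, a small GTP-binding protein, by 1.02 (standard error 0.07, adjusted p = 4.96e-08), PHLDA1 by 0.96 (standard error 0.04, adjusted p = 5.43e-10) and the AP-1 subunit FOSL1 by 0.92 (standard error 0.04, adjusted p = 3.18e-10). BTG2 rose by 0.73 (standard error 0.15, adjusted p = 0.00126) and DUSP2 by 0.38 (standard error 0.11, adjusted p = 0.0189), a call that was lost without siCtrl replicate 3 and without siQKI replicates 1 and 2. FOS and FOSB did not pass in siQKI cells, at -0.32 each (standard errors 0.14 and 0.13).

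**Figure D4:**
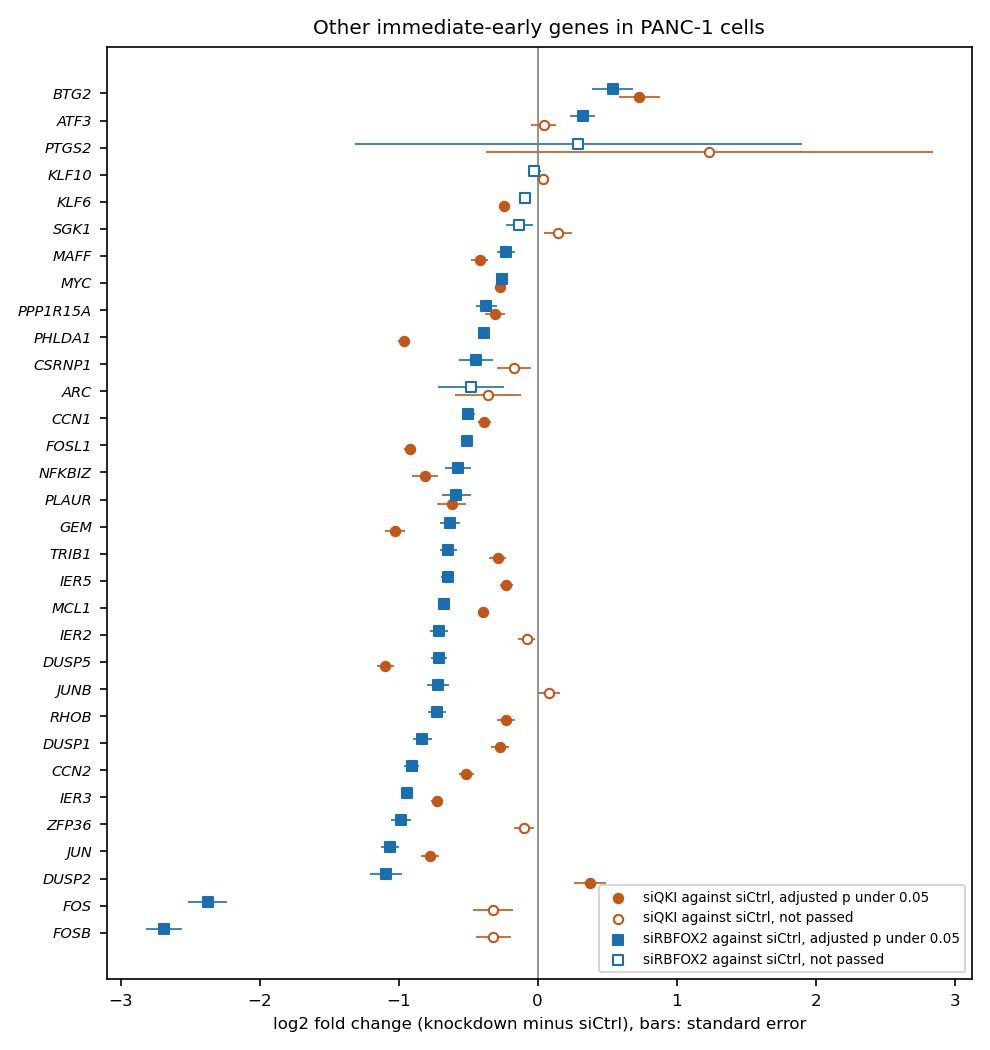
Log2 fold changes of the 32 other immediate-early genes in siQKI (circles) and siRBFOX2 (squares) PANC-1 cells against the shared siCtrl libraries, with bars of 1 standard error and filled symbols where the limma adjusted p was under 0.05. In siRBFOX2 cells 25 genes fell, led by FOSB and FOS, and in siQKI cells 19 fell, led by DUSP5 and GEM.

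Set against each other, the knockdowns differed in 21 of the 32, 14 of them higher and 7 lower in siQKI than in siRBFOX2 cells, where 9.93% of all genes were higher and 11.6% lower. FOSB (2.37, standard error 0.13, adjusted p = 1.15e-08), FOS (2.05, standard error 0.14, adjusted p = 1.20e-07), DUSP2 (1.47, standard error 0.11, adjusted p = 4.06e-07) and ZFP36, which destabilizes AU-rich mRNAs (0.88, standard error 0.07, adjusted p = 7.92e-07), were the most above. PHLDA1 (-0.57), FOSL1 (-0.41), GEM (-0.40) and DUSP5 (-0.39) were the most below, with limma adjusted p from 3.05e-07 to 0.000826. So the FOS and FOSB difference lay on the side of the EGR and NR4A genes, and FOSL1 lay on the other.

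Among 25 genes of the upstream route, 12 fell and 2 rose in siRBFOX2 cells (median -0.15), and 11 fell and 4 rose in siQKI cells (median -0.17). The shares over all genes were 14.5% lower and 12.0% higher in siRBFOX2 cells and 18.1% lower and 14.9% higher in siQKI cells, and the 2 and 4 that rose were no more than about these shares. SRF, the factor that binds CArG boxes, fell in both, from 15829 normalized counts in siCtrl to 12041 in siRBFOX2 (log2 fold change -0.40, standard error 0.05, limma adjusted p = 3.36e-05) and 8604 in siQKI cells (-0.88, standard error 0.05, limma adjusted p = 6.00e-09). Its coactivator MRTFB rose in both (0.48 and 0.71, standard error 0.05 each, limma adjusted p = 6.65e-06 and 7.86e-08). RPS6KA1, which encodes the ERK-activated kinase RSK1, fell by 1.41 in siQKI cells (standard error 0.05, limma adjusted p = 6.39e-11), and ELK3, an SRF partner, by 0.84 (standard error 0.07, limma adjusted p = 1.99e-07). CRTC2, a CREB coactivator, fell by 0.45 in siRBFOX2 cells (standard error 0.05, limma adjusted p = 9.50e-06). RPS6KA2 had the largest change of this list in siRBFOX2 cells, a rise of 0.61 (standard error 0.15, limma adjusted p = 0.00784). In the direct comparison 4 of the 25 were higher and 9 lower in siQKI cells, beside 9.93% and 11.6% of all genes. SRF was among the lower ones (-0.49, standard error 0.05, limma adjusted p = 5.75e-06). Whether the level of SRF RNA bears on the EGR genes was not tested.

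The partners of the NAB and NR4A proteins changed by small amounts. Of 12 NuRD subunits that NAB proteins recruit, 3 rose and 4 fell in siRBFOX2 cells and 5 rose and 4 fell in siQKI cells, none by a factor of 1.5, with medians of -0.03 and 0.01 beside 0.01 and 0.03 over all genes. Of all genes tested, 12.0% were called higher and 14.5% lower in siRBFOX2 cells, and 14.9% and 18.1% in siQKI cells. GATAD2A had the largest change in siRBFOX2 cells (0.57, standard error 0.04, limma adjusted p = 3.13e-07), and CHD3 in siQKI cells (0.47, standard error 0.05, limma adjusted p = 1.55e-06). Of the retinoid X receptors, the dimer partners of NR4A1 and NR4A2, RXRA and RXRB were tested, and RXRA passed against siCtrl in siRBFOX2 cells (-0.17, standard error 0.06, limma adjusted p = 0.0444), a call lost in 11 of 17 alternatives.

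Genes known as direct EGR targets in other cells changed in both directions against siCtrl. Of 16, all tested, 7 rose and 3 fell in siRBFOX2 cells (median 0.23) and 9 rose and 3 fell in siQKI cells (median 0.32), beside 12.0% higher and 14.5% lower of all genes in siRBFOX2 cells and 14.9% and 18.1% in siQKI cells. PDGFA, a growth factor whose promoter EGR1 binds, rose from 1042 normalized counts in siCtrl to 1843 in siRBFOX2 (log2 fold change 0.82, standard error 0.10, limma adjusted p = 2.11e-05) and 2501 in siQKI cells (1.27, standard error 0.10, limma adjusted p = 1.60e-07). ACHE, encoding acetylcholinesterase, rose by 0.94 (standard error 0.17, limma adjusted p = 9.44e-04) and 0.73 (standard error 0.17, limma adjusted p = 0.00429). On the other side, CD44, a cell adhesion receptor, fell by 0.69 in siRBFOX2 cells (standard error 0.04, limma adjusted p = 1.07e-08) and by 0.32 in siQKI cells (standard error 0.04, limma adjusted p = 1.06e-05), and GDF15, a stress-induced cytokine, fell by 0.32 and 0.42 (standard error 0.07 each, limma adjusted p = 0.00258 and 2.34e-04). In the direct comparison 6 of the 16 were higher and 1 was lower in siQKI cells (median -0.01), beside 9.93% and 11.6% of all genes. Of 15 known NR4A targets, 8 passed the filter on low values and 1 of them, ENO3, the muscle enolase, passed a test, in siQKI cells (0.85, standard error 0.13, limma adjusted p = 1.27e-04).

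The counts of other stress and marker lists are given beside these results, and their part in them was not tested. Over all genes, 12.0% were higher and 14.5% lower in siRBFOX2 cells and 14.9% and 18.1% in siQKI cells. Of 10 interferon-response genes, 5 rose and 0 fell in siRBFOX2 cells, with MX1 at 1.12 (standard error 0.16, limma adjusted p = 1.28e-04), whereas 1 rose and 5 fell in siQKI cells, with IFIT2 at -0.73 (standard error 0.09, limma adjusted p = 9.33e-06). The list summed to 144 to 152 rescaled counts in siRBFOX2, 108 to 118 in siQKI, 123 to 126 in siCtrl and 1063 to 1746 in HPAF-II libraries. Of 8 heat shock genes, 1 rose and 4 fell in siRBFOX2 cells and 3 rose and 4 fell in siQKI cells, DNAJB1 falling in both (-0.43 and -0.55, standard error 0.04 each, limma adjusted p = 1.29e-06 and 4.96e-08). Of the 6 epithelial markers, 1 rose and 3 fell in siRBFOX2 cells and 1 rose and 1 fell in siQKI cells, the siQKI counts being near the shares over all genes. CDH1 (E-cadherin) was the marker that rose in each (0.53 and 1.39, standard error 0.11 each, limma adjusted p = 0.00177 and 1.54e-07). KRT8, KRT18 and KRT19 went the other way in siRBFOX2 cells. Their means were 427827, 295695 and 158393 normalized counts in siCtrl and 364277, 231988 and 135191 in siRBFOX2 cells. The epithelial list summed to 2547 to 2640 rescaled counts in siCtrl, 2556 to 2713 in siQKI and 2130 to 2287 in siRBFOX2 libraries. Of the 3 mesenchymal markers, 1 rose and 0 fell in siRBFOX2 cells and 1 rose and 2 fell in siQKI cells. Among markers of other cell types ALB alone passed the filter on low values, and it did not pass the test in either knockdown.

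The genes whose log2 levels followed those of the EGR and NR4A genes most closely over the 9 PANC-1 libraries included other immediate-early genes. Among 15249 named genes with a mean of at least 50, the highest Pearson r with EGR1 belonged to EGR2 (0.992), PMEPA1 (0.991), LOC102724428, a copy of the kinase gene SIK1 with which it may share reads (0.988), FOS (0.988) and DUSP6 (0.986), the last a cytoplasmic ERK phosphatase. NR4A1 was followed by NR4A2 (0.992), MFN2 (0.991), FOSB (0.989), WRNIP1 (0.989) and DUSP6 (0.988). DUSP6 stood at 47290.4 normalized counts in siCtrl, 40576 in siQKI and 17402 in siRBFOX2 cells. For NAB2 the closest were FEN1 (0.992), USP5 (0.967), GEMIN4 (0.967), EIF4E2 (0.965) and ZNF787 (0.961), and none of these is an immediate-early gene. The 9 points fall into 3 groups that share libraries and scaling, so these coefficients describe likeness over those libraries and carry no test.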

How the data were processed

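PolyA RNA-seq libraries were made in 3 biological replicates per group, and groups were read from the sample labels. The deposited signal values are counts per gene of the FAST DB annotation (hg38), scaled by the authors with DESeq2 size factors that were estimated apart for the 9 PANC-1 and the 3 HPAF-II libraries. The submitters' processing notes also name STAR 2.7.5a, SAMtools, Picard and FastQC. Every value is a whole multiple of 1 step per library (within 0.01), but 82.1% to 84.8% of values up to 30 steps are divisible by 3, so that 1 step is no sequenced fragment, counts could not be recovered and count models were not used. Precision was taken from the spread of the replicates. The 9 genes and the gene lists were chosen with earlier results of these data known.

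The 3 PANC-1 groups entered limma 3.58.1 (R 4.3.3) on log2(normalized count + 1) in 1 fit of the 9 libraries with a mean-variance trend and no block, over 22544 genes with a mean of at least 10, with Benjamini-Hochberg adjustment and a threshold of 0.05. All 9 genes passed this filter. A log2 fold change is a difference of mean log2 values on this scale, which understates low genes, and percentages are ratios of mean normalized counts. On simulated data with 22544 genes modelled on siQKI against siCtrl, 43 of 100 genes changed by 0.5 and 67 of 100 changed by 1 (log2) were recovered, beside 8 false calls. The simulation changed far fewer genes than the 7432 called in siQKI against siCtrl. Its noise followed a smoothed trend of the spread, so these rates need not hold for the data. HPAF-II and PANC-1 siCtrl libraries were rescaled to a total of 1000000, and log2 ratios used a pseudocount of 0.01. For each of 11 gene lists and each comparison, the rule for naming genes asked for a call past the threshold, a mean of at least 50 and no overlap between groups. It also asked that they be among the 4 largest changes in either direction. Not every gene that met this rule is named. FOS and FOSB in siQKI cells were outside this rule and were named after their values were seen. Some listed genes are not reported here and were left out of the counts. Likeness was ranked for EGR1, NR4A1 and NAB2.

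Same-numbered PANC-1 libraries did not deviate together (r from -0.032 to 0.023). Alternatives were pseudocounts of 0.1 and 10, no filter, a mean of at least 50, upper-quartile rescaling, a fit of just the 2 groups compared, the replicate number as a block, no trend, and each library left out. Promoter windows came from RefSeq tables on GRCh38.p14. Summaries used Python 3.11.15, numpy 2.4.6 and pandas 2.3.3, and figures matplotlib 3.10.9.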

Additional observations from a re-analysis of the deposited data

How the results depend on the processing

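The direction of every called difference of the 9 genes was kept in all 17 alternatives of each PANC-1 comparison, and so was the side of the threshold for the 8 genes in siRBFOX2 cells. In siQKI cells EGR2 was past it in 16 and EGR4 in 14 alternatives, and in the direct comparison EGR3 and EGR4 in 16. Of the other immediate-early genes, the number that rose went from 2 to 1 without a mean-variance trend in both knockdowns, and ran from 1 to 3 (siQKI) and 1 to 2 (siRBFOX2) over the fits that leave out 1 library. Upper-quartile rescaling gave 18 falling genes in siQKI and 25 in siRBFOX2 cells. With a replicate block, 21 and 25 fell, and 7336 genes were called in siQKI cells instead of 7432. The labels do not say what same-numbered libraries share beyond the number. Among values of single genes under an alternative, 2568 kept their side of the threshold or stayed within 1 SD. Another 144 lost their call with the same direction, 4 moved and 0 were labelled reversed. For the 9 genes that label was given only to called differences or, between the lines, to 2-fold ratios with libraries apart. Uncalled values did change sign, as for NR4A3 in siQKI cells (-0.42 to 0.08) and NAB2 in the direct comparison (0.04 to -0.02). Between the lines, a pseudocount of 1 lowered the number of genes with at least a 2-fold ratio from 12923 to 5425, and the NR4A3 log2 ratio went from -1.94 to -0.35, while the deposited values without rescaling put NAB1 at -1.12 instead of -0.85. Low levels limit NR4A3, EGR3 and EGR4 most, since the fragments behind their counts are unknown.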
